A study of Bos taurus with 15 samples.

Results

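ENSBTAG00000032079, ENSBTAG00000047865 and ENSBTAG00000005045 are 3 of the 31999 rows of a gene count table for bovine (Bos taurus) morulae. They were picked from that table as rows that are near 0 in embryos without a sperm genome, that reach 1 CPM (a row's counts scaled to a common library total) or more in every embryo library with one, and that differ in level between the embryo groups that have one. The table holds 15 RNA-seq libraries of polyadenylated RNA in 3 groups of 5. The androgenetic haploid group (titles beginning with TII) has sperm-derived chromosomes only, the parthenogenetic haploid group (CHX) has oocyte-derived chromosomes only, and the diploid group (ICSI) was made by injecting a sperm into an oocyte and has both. All were morulae, the compact ball of cells that precedes the blastocyst, and no breed, bull, donor, batch or day is given for any library. Each group was made by its own procedure. Against ICSI, parental genome, ploidy and procedure cannot be told apart, and between the haploid groups, which share their ploidy, parental genome and procedure cannot be. The labels do not give the embryos, pools or animals behind a replicate. In bulk libraries such as these, fewer cells with a transcript and less of it per cell cannot be told apart.

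Most genes are transcribed from both parental copies. Imprinted genes are the exception: a methylation mark set in the sperm or the oocyte keeps 1 copy silent, and the embryo uses only the other. A gene that uses only the paternal copy should give little or no transcript in a parthenogenetic embryo, where every chromosome came from the oocyte. It can be transcribed in androgenetic and diploid embryos alike. SNURF, which shares a transcript with the splicing protein gene SNRPN, is a long-known gene of this kind in mammals. Bovine embryos start major transcription of their own genome some cleavages before the morula, and RNA stored in the oocyte is being lost over the same period. RNA levels alone do not show which parental copy was read. The sources used here pair none of the 3 identifiers with a gene name, position or product, so no function can be given for them.

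Because the rows were chosen by their levels in all 3 groups, those levels and their differences are a description, and no p-value is given for them. CPM values were scaled by the trimmed mean of M-values (TMM) factors of the libraries. Library totals ran from 19968077 to 28981601 counts, and 13564 to 19950 rows per library had at least 1 count, with the fewest in androgenetic replicate 6 (13564), ICSI replicate 5 (15286) and parthenogenetic replicate 6 (16154). Of the 16 morula markers drawn up for a check of the tissue, 3 had a row under their symbol. The homeobox genes ARGFX and DUXA, which are active around genome activation, lay at 256 to 3923 and 35.9 to 6423 CPM over the 15 libraries, and the pluripotency factor SOX2 at 0.163 to 8.28 CPM. Markers of cumulus cells, oocytes and sperm and Y-linked genes had no row under their symbols and were not analysed here.

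The 3 rows differed in level, and ENSBTAG00000047865 and ENSBTAG00000005045 shared an order of the groups that ENSBTAG00000032079 did not have. ENSBTAG00000032079 was highest in diploid morulae and about 5.54-fold lower in androgenetic ones. ENSBTAG00000005045 was 10.7-fold higher in androgenetic than in diploid morulae. ENSBTAG00000047865 was 3.32-fold higher in androgenetic morulae, at a level near the limit of the rule, and had 0 counts in every parthenogenetic library. Their parthenogenetic levels were 0.586%, 7.85% and 0% of the diploid mean in the order ENSBTAG00000032079, ENSBTAG00000005045 and ENSBTAG00000047865.

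**Figure D1:**
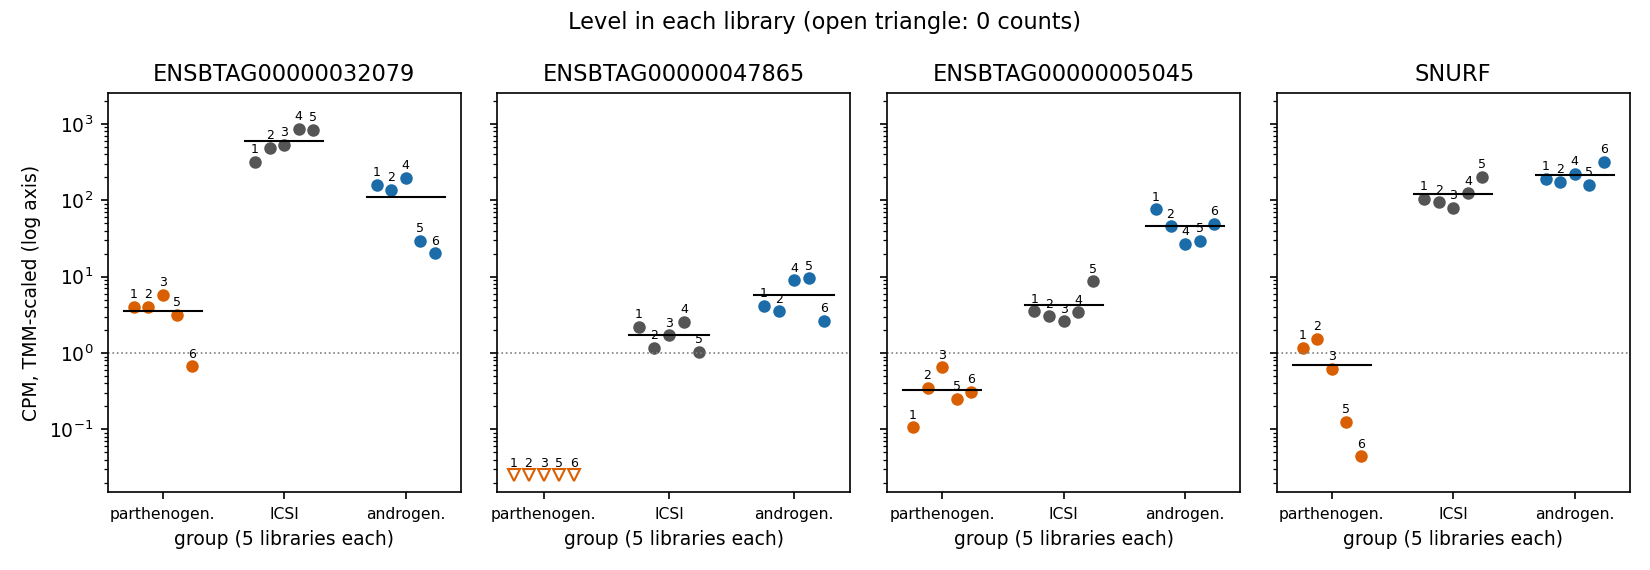
CPM of the 3 rows and of SNURF in each library on a log axis, by group, with the replicate number above each point, a black line at the mean of 5 libraries and a dotted line at 1 CPM; open triangles are libraries with 0 counts. In each of the 4 panels every parthenogenetic library lies below every ICSI and androgenetic library, and the ICSI and androgenetic libraries of SNURF overlap.

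ENSBTAG00000032079 was the only 1 of the 3 rows that was lower in androgenetic than in diploid libraries. In ICSI replicates 1 to 5 it had 315, 483, 531, 858 and 829 CPM, a mean of 603 ± 234 (SD, n = 5). In androgenetic replicates 1, 2, 4, 5 and 6 it had 160.4, 136, 198, 29.6 and 20.3 CPM, a mean of 109 ± 79.9. The androgenetic libraries thus fell into 3 at 136 to 198 CPM and 2 (replicates 5 and 6) at 20.3 to 29.6 CPM, and all 5 lay below the lowest ICSI library. In parthenogenetic replicates 1, 2, 3, 5 and 6 it had 3.98, 4.05, 5.81, 3.16 and 0.667 CPM, a mean of 3.53 ± 1.87.

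The row was low rather than absent without a sperm genome. Its 15 to 179 counts per parthenogenetic library, 512 in all, put 4 of the 5 libraries above 1 CPM, and the lowest, replicate 6, had an exact 95% Poisson interval of 0.374 to 1.10 CPM. Such intervals cover counting error only, because reads amplified by PCR without molecular identifiers are not independent molecules. The fitted log2 fold change was -7.41 ± 0.77 (SE) for parthenogenetic minus ICSI, 4.94 ± 0.69 for androgenetic minus parthenogenetic and -2.47 ± 0.61 for androgenetic minus ICSI. With each of the 15 libraries left out in turn, the last value ran from -2.81 (without androgenetic replicate 4) to -2.12 (without androgenetic replicate 6). ENSBTAG00000032079 therefore ranked ICSI first, androgenetic next and parthenogenetic last, with no overlap between neighbours.

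ENSBTAG00000005045 had the opposite order of the groups with sperm chromosomes. In androgenetic replicates 1, 2, 4, 5 and 6 it had 76.0, 45.5, 27.2, 29.6 and 49.4 CPM, a mean of 45.5 ± 19.6 (SD, n = 5). In ICSI replicates 1 to 5 it had 3.53, 3.01, 2.60, 3.40 and 8.65 CPM, a mean of 4.24 ± 2.49. Replicate 5 stood apart from the other ICSI libraries, and it was still under a level of 27.2 CPM, the lowest androgenetic value. In parthenogenetic replicates 1, 2, 3, 5 and 6 it had 0.107, 0.347, 0.649, 0.250 and 0.311 CPM from 3, 9, 20, 8 and 7 counts, a mean of 0.333 ± 0.199.

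For ENSBTAG00000005045 the fitted log2 fold change was 3.43 ± 0.57 (SE) for androgenetic minus ICSI, -3.65 ± 0.58 for parthenogenetic minus ICSI and 7.07 ± 0.68 for androgenetic minus parthenogenetic. The ICSI libraries were thus about as far above the parthenogenetic ones as they were below the androgenetic ones on the log2 scale. Without ICSI replicate 5 the first value was 3.90 and the second -3.22. The remaining level without a sperm genome was 7.85% of the ICSI mean and 0.731% of the androgenetic mean. For ENSBTAG00000032079 it was the larger share of the androgenetic mean (3.25%) and the smaller of the ICSI mean (0.586%).

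ENSBTAG00000047865 had the lowest counts of the 3 rows. It had 0 counts in all 5 parthenogenetic libraries, which allows up to 3 counts over the group (upper 95% Poisson limit), or 0.0215 CPM. In ICSI replicates 1 to 5 it had 59, 31, 57, 82 and 22 counts, or 2.19, 1.17, 1.70, 2.56 and 1.03 CPM, a mean of 1.73 ± 0.654 (SD, n = 5). In androgenetic replicates 1, 2, 4, 5 and 6 it had 95, 57, 237, 160 and 49 counts, or 4.17, 3.51, 8.92, 9.50 and 2.66 CPM, a mean of 5.75 ± 3.21. Against the 3 counts that 0 allows over the group, the pooled level was at least 83.1-fold higher in ICSI and at least 275-fold higher in androgenetic libraries. These bounds allow for counting error in the 0 alone, and not for the spread between libraries.

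The gap between the diploid and androgenetic levels of ENSBTAG00000047865 was narrow. The highest ICSI library, replicate 4, had 2.56 CPM with an exact 95% Poisson interval of 2.04 to 3.18, and the lowest androgenetic library, replicate 6, had 2.66 CPM with an interval of 1.96 to 3.51, so the separation of these 2 libraries is smaller than counting error. Scaled by library totals alone, 3 of the 5 ICSI libraries lay above the lowest androgenetic one, and the groups overlapped. With DESeq2 size factors or upper-quartile factors they did not. The fitted log2 fold change of 1.73 ± 0.85 (SE) for androgenetic minus ICSI was the smallest of the 3 rows and had the largest SE. ICSI replicate 5, at 1.03 CPM and an interval of 0.645 to 1.56, only just met the rule. At 0.965 CPM by library totals and 0.977 CPM by upper-quartile factors, the lowest ICSI value did not meet it.

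The 0 counts of ENSBTAG00000047865 can be set against the remaining shares of the other rows. At the share of the ICSI mean that ENSBTAG00000032079 had in parthenogenetic libraries (0.586%), ENSBTAG00000047865 would have had 1.41 counts over the 5 libraries together. At the share of SNURF (0.582%) it would have had 1.40 counts, and at that of ENSBTAG00000005045 (7.85%) 18.9 counts. The first 2 shares gave fewer than the 3 counts that 0 allows, so the 0 counts cannot tell such a share from full absence. The last share gave more than those 3 counts.

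**Figure D2:**
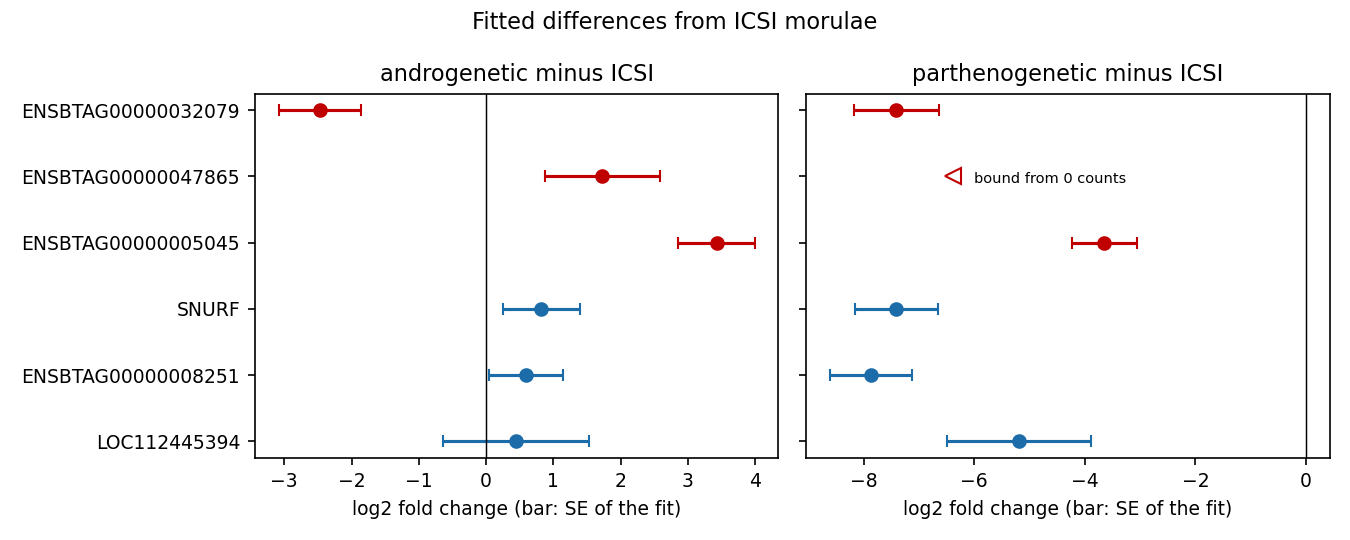
Fitted log2 fold change, with the standard error as bars, for androgenetic minus ICSI and parthenogenetic minus ICSI morulae in the 3 rows (red) and 3 rows of similar pattern (blue); the open triangle is the bound that 0 counts of ENSBTAG00000047865 allow. The 3 red points lie on both sides of 0 for androgenetic minus ICSI, at -2.47, 1.73 and 3.43, and all points lie below 0 for parthenogenetic minus ICSI.

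By TMM factors all 3 rows had no overlap between the libraries of any pair of groups. The rule asked for different levels and not for this in so many words, but it chose the rows by these same levels. Over the 16375 rows tested, 3.05% were higher and 4.15% lower without overlap in androgenetic than in ICSI libraries, 0.501% were lower without overlap in parthenogenetic than in ICSI libraries, and 1.78% were higher without overlap in androgenetic than in parthenogenetic ones. Since the rule used these contrasts, nothing is read from the 3 of 3. Both contrasts with ICSI share the ICSI libraries, and each difference is given as its own value only.

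The rule could be rebuilt from the table. Of the 6201 rows at 1 CPM or more in every ICSI and androgenetic library, 10 had every parthenogenetic library below every other library, and in 3 of those 10 the androgenetic and ICSI libraries did not overlap either. These 3 were ENSBTAG00000032079, ENSBTAG00000047865 and ENSBTAG00000005045. By library totals or upper-quartile factors 2 rows remained in that count, and by DESeq2 size factors 3. The limit that the lowest ICSI or androgenetic library sets was 3.49 times the highest parthenogenetic library for ENSBTAG00000032079 and 4.01 times for ENSBTAG00000005045. The corresponding values were 51.2 for SNURF and 70.7 for ENSBTAG00000008251, so the separation of the parthenogenetic libraries was wider in those 2 rows than in either.

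A stricter reading of "near 0" changes the members. Under 1 CPM in every parthenogenetic library and at 1 CPM or more in all others, 3 rows remained: ENSBTAG00000047865, ENSBTAG00000005045 and LOC112445394, which had 0.151 ± 0.298 CPM in parthenogenetic, 5.74 ± 2.55 in ICSI and 7.82 ± 5.46 in androgenetic libraries. Without androgenetic replicate 2 that count was 5. ENSBTAG00000032079 and SNURF did not pass, since they reached 5.81 and 1.54 CPM in a parthenogenetic library. Just inside the limit stood ENSBTAG00000047865, with 1.03 CPM as its lowest ICSI value, and LOC112445394, with 0.682 CPM as its highest parthenogenetic value. Just outside stood LOC100848941 at up to 1.04 CPM in parthenogenetic libraries, then ENSBTAG00000006439 and ENSBTAG00000013640, both at up to 1.09 CPM.

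LOC100848941 is annotated as a long non-coding RNA in RefSeq (assembly ARS-UCD2.0), on the same chromosome as SNURF with 1 gene between them in that annotation. It had 0.410 ± 0.561 CPM in parthenogenetic, 12.7 ± 3.84 in ICSI and 17.6 ± 10.4 in androgenetic libraries (n = 5 each), with ICSI and androgenetic values overlapping. In androgenetic replicate 5 it was at 1.19 CPM, the lowest of the 10 libraries with sperm chromosomes. The place of the 3 rows on the chromosomes was not analysed here, because no identifier of theirs could be matched to that annotation.

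**Figure D3:**
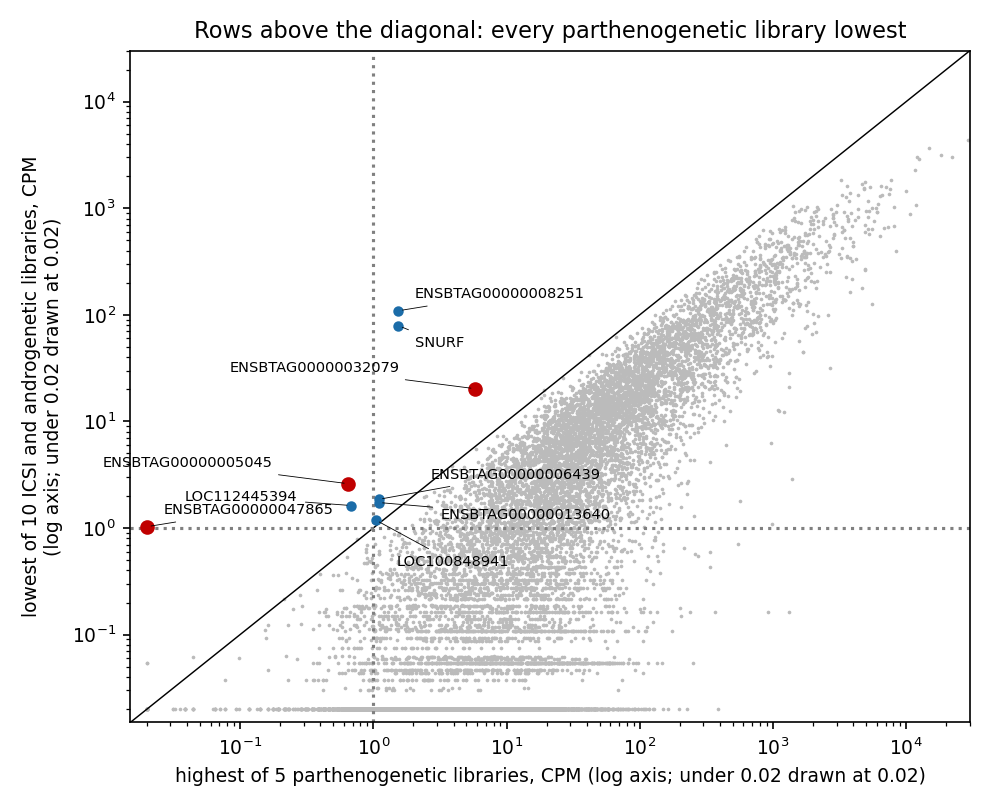
Each grey point is 1 of the 16375 rows tested, with its highest parthenogenetic library on the x axis and its lowest ICSI or androgenetic library on the y axis (CPM, log axes, dotted lines at 1 CPM, values under 0.02 drawn at 0.02); red points are the 3 rows and blue points other rows above the diagonal. Few points lie above the diagonal, where every parthenogenetic library is lowest, and SNURF and ENSBTAG00000008251 lie farther above it than ENSBTAG00000032079 and ENSBTAG00000005045.

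Set against SNURF in the same library, a comparison that needs no scaling factor, the rows behaved differently from each other. SNURF itself had 120.3 ± 48.1 CPM in ICSI and 213 ± 62.3 in androgenetic libraries. The 5 ICSI libraries had 0.0340, 0.0321, 0.0329, 0.0276 and 0.0430 counts of ENSBTAG00000005045 per count of SNURF, a coefficient of variation of 16.6%. In ICSI replicate 5, which had the highest CPM of both rows, the ratio was 0.0430, and the highest CPM of ENSBTAG00000005045 there thus came with the highest CPM of SNURF. In androgenetic replicates 1, 2, 4, 5 and 6 the ratio was 0.400, 0.262, 0.121, 0.184 and 0.156, above every ICSI library.

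The ratio of ENSBTAG00000032079 to SNURF was 3.04, 5.14, 6.72, 6.96 and 4.12 in ICSI replicates 1 to 5. In androgenetic replicates 1, 2 and 4 it was 0.844, 0.782 and 0.887, and in replicates 5 and 6 it was 0.184 and 0.0642. The split of the androgenetic libraries seen in CPM was therefore present without scaling too. For ENSBTAG00000047865 the ratio was 0.00511 to 0.0216 in ICSI and 0.00840 to 0.0592 in androgenetic libraries, and the groups overlapped. On this scale the diploid and androgenetic libraries of ENSBTAG00000047865 were not separate, while those of the other two rows were.

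**Figure D4:**
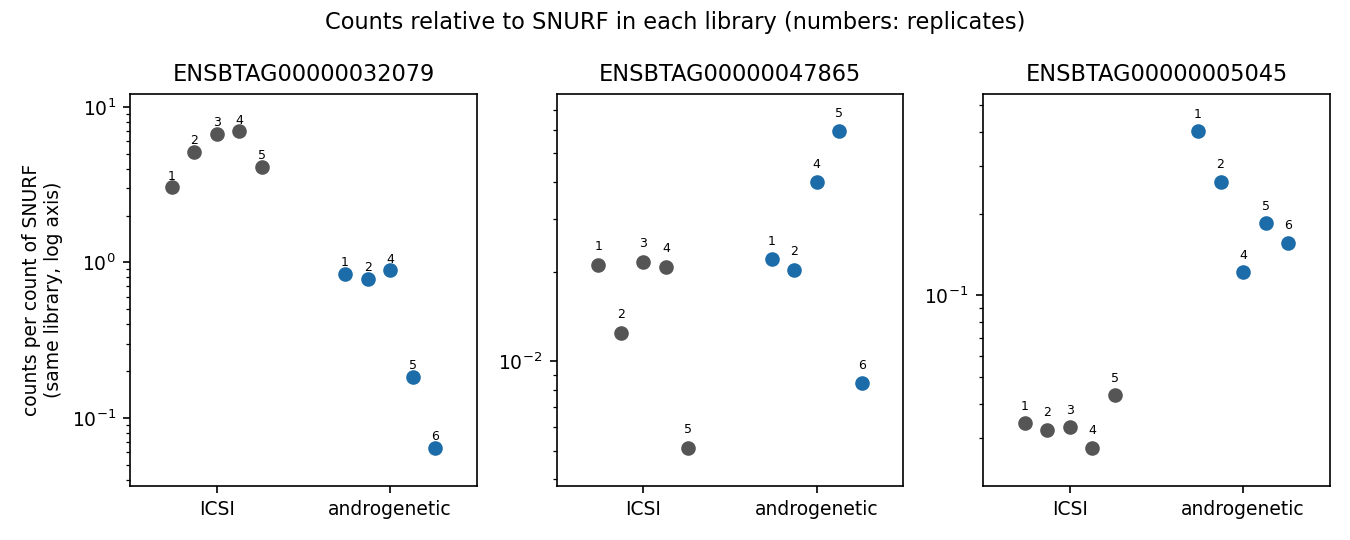
Counts of each of the 3 rows per count of SNURF in the same library (log axis), with the replicate number above each point, for the 5 ICSI and 5 androgenetic libraries. The ratio of ENSBTAG00000005045 is nearly level over the ICSI libraries (0.0276 to 0.0430), that of ENSBTAG00000032079 is below 0.2 in androgenetic replicates 5 and 6, and the groups overlap for ENSBTAG00000047865.

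In each haploid group the level of ENSBTAG00000032079 was lowest in the library with the fewest rows detected and highest in that with the most, but the libraries between did not keep this order. Among androgenetic libraries it was lowest in replicate 6, which had the fewest rows detected (13564), and highest in replicate 4, which had the most (18633), but replicate 5 was at 29.6 CPM with 16839 rows where replicate 2 was at 136 CPM with 16665. Among parthenogenetic libraries it was lowest in replicate 6 (16154 rows) and highest in replicate 3 (18899 rows), but replicate 2 was at 4.05 CPM with 18111 rows where replicate 5 was at 3.16 CPM with 18478. In the ICSI group the library with the fewest rows, replicate 5, was at 829 CPM, the second highest. ENSBTAG00000005045 was 49.4 CPM in androgenetic replicate 6 and at its ICSI maximum in replicate 5. The part of library quality in these levels was not tested. With the library of fewest rows in each group left out, the log2 fold changes for androgenetic minus ICSI were -1.97, 1.87 and 3.93 for ENSBTAG00000032079, ENSBTAG00000047865 and ENSBTAG00000005045, so no direction turned.

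**Figure D5:**
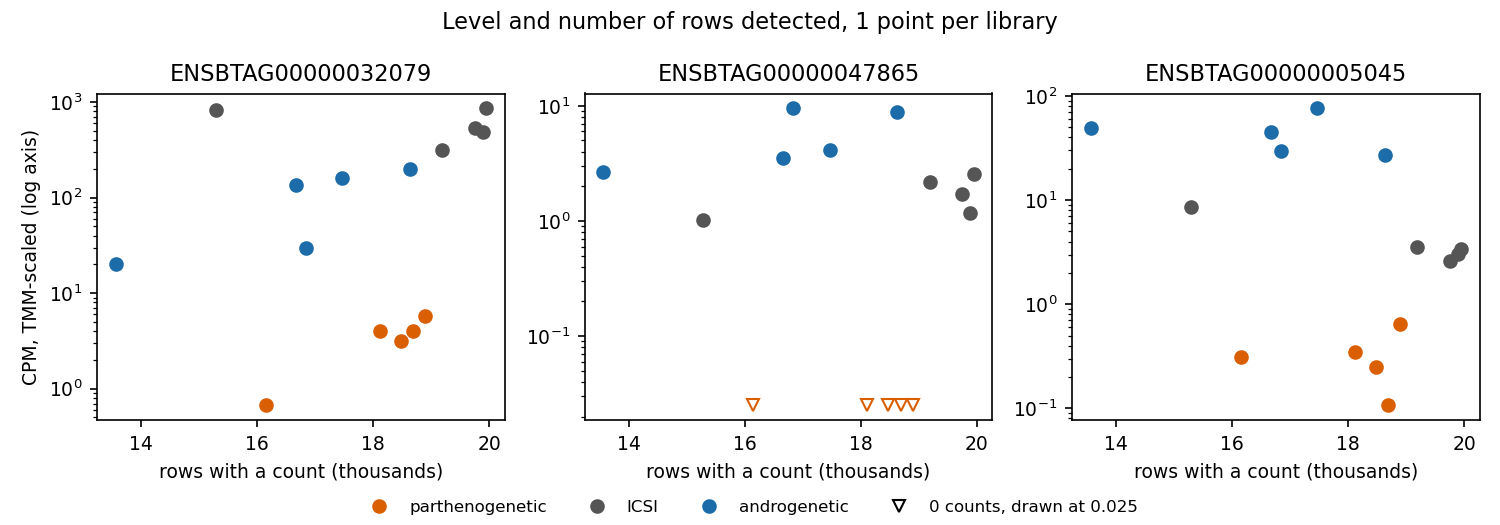
CPM of each row (log axis) against the number of rows with at least 1 count, in units of 1000, with 1 point per library coloured by group and open triangles for 0 counts. ICSI replicate 5 is the grey point at 15286 rows, where ENSBTAG00000032079 is at 829 CPM, and androgenetic replicate 6 is the blue point at 13564.

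Within a group the 3 rows spread unequally. The SD of log2 CPM over 5 libraries was 0.60, 0.54 and 0.67 in ICSI libraries for ENSBTAG00000032079, ENSBTAG00000047865 and ENSBTAG00000005045. In androgenetic libraries it was 1.52, 0.81 and 0.60, with the highest value in ENSBTAG00000032079, whose replicates 5 and 6 lay below the other 3. The median SD over all rows tested was 0.88 in ICSI and 1.63 in androgenetic libraries. All 3 rows thus lay below the median in both groups. The rule asks for groups that differ in level and so bears on these spreads, which are given as a description.

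The rows most alike were found by the Pearson correlation of log2 CPM over all 15 libraries, a description that is carried mainly by the difference between the groups. ENSBTAG00000047865 was most like SNURF (0.94), then ENSBTAG00000008251 (0.93) and ENSBTAG00000005045 (0.90). Within the 5 androgenetic and within the 5 ICSI libraries the correlation of ENSBTAG00000047865 with each of these 3 rows was negative. The likeness over 15 libraries was thus not seen inside either group, but 5 libraries are too few to read these values. SNURF and ENSBTAG00000008251 followed each other (0.999) and cannot be told apart as separate genes, since the strand setting of the counting is not given. ENSBTAG00000005045 was most like ENSBTAG00000047865 (0.90), then ENSBTAG00000050310 (0.89) and ENSBTAG00000003045 (0.89). ENSBTAG00000050310 and ENSBTAG00000003045 had 23.3 ± 10.2 and 32.3 ± 24.6 CPM in androgenetic against 1.51 ± 1.89 and 7.57 ± 3.68 in ICSI libraries. In parthenogenetic libraries they had 0.577 ± 0.934 and 3.96 ± 1.97 CPM, and both overlapped the ICSI libraries. Their log2 fold changes for parthenogenetic minus ICSI were -1.38 ± 0.97 and -0.94 ± 0.58 (SE). By Spearman correlation of CPM, 0 of the 3 nearest rows were shared with these lists for ENSBTAG00000047865 or ENSBTAG00000005045.

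ENSBTAG00000032079 had other neighbours. It was most like ENSBTAG00000011390 (0.89), ENSBTAG00000026437 (0.88) and ULBP3 (0.87), the last encoding a ligand of the NKG2D receptor of natural killer cells, and 2 of these 3 were shared by Spearman correlation. ULBP3 had 0 counts in every parthenogenetic library, 4.30 to 31.4 CPM in ICSI libraries and 0.0542 to 10.3 CPM in androgenetic ones, with its lowest androgenetic values in replicates 2 and 6. ULBP family members have near-identical copies, and ENSBTAG00000026437 had 0 counts in the same 5 libraries and 4.49 to 40.2 CPM in ICSI ones, so these 2 rows are uncertain as separate genes. The likeness of ENSBTAG00000032079 to these rows within a single group was not examined, since 5 libraries are too few for a correlation.

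Few known imprinted genes had a row under their symbol. Of 34 genes drawn up as paternally expressed, 4 had a row and were tested with edgeR's quasi-likelihood test, called at a Benjamini-Hochberg adjusted p under 0.05. In parthenogenetic against ICSI morulae 1 of the 4 was lower and 0 higher, where 0.0733% of all rows tested were called, and the median log2 fold change was -0.12 against 0.02 over all rows. SNURF was the 1 that passed, at 0.701 ± 0.653 CPM in parthenogenetic libraries (log2 fold change -7.41 ± 0.75 SE, edgeR adjusted p = 8.33e-05). In androgenetic against parthenogenetic morulae SNURF was again the only 1 of 4 to pass, higher by 8.24 ± 0.78 (edgeR adjusted p = 2.30e-05), where 1.75% of all rows were called and the medians were 1.35 and 0.00.

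The other 3 of that list did not pass in either comparison with the parthenogenetic group. MKRN3, a ring-finger gene of the SNURF region, had a log2 fold change of 0.74 ± 1.31 for parthenogenetic minus ICSI, and USP29, a deubiquitinase gene of the PEG3 region, had 0.83 ± 1.17. ZIM3, a zinc-finger gene of the PEG3 region whose place in the list is uncertain, had -0.98 ± 0.59. All 3 were detected in every parthenogenetic library, at 1.03 CPM or more for MKRN3, 0.270 for USP29 and 8.01 for ZIM3, unlike ENSBTAG00000047865. Among libraries with sperm chromosomes, MKRN3 had 0 counts in ICSI replicate 5 and androgenetic replicate 1, and USP29 had 0 in androgenetic replicate 6. In androgenetic against ICSI morulae 0 of the 4 passed, where 2.82% of all rows did, with 3231 rows at an unadjusted p under 0.05, and the median was 0.82 against -0.01. SNURF had 0.82 ± 0.57 there, which did not pass (edgeR adjusted p = 0.454), while the values of the 3 rows were -2.47, 1.73 and 3.43. The share of all rows called there rests on single libraries: 461 rows were called, 0 without any 1 of ICSI replicates 1, 3 and 4 or androgenetic replicates 1 and 2, 1 without ICSI replicate 2, 20 without androgenetic replicate 5, 235 without parthenogenetic replicate 5 and 744 to 1077 without androgenetic replicate 4, androgenetic replicate 6 or parthenogenetic replicate 6. For parthenogenetic against ICSI morulae 12 rows were called, and 3 or 4 without parthenogenetic replicate 1, 2, 5 or 6. Between the haploid groups 287 were called, 14 to 26 without parthenogenetic replicate 1, 3 or 5, 87 to 167 without any 1 of ICSI replicates 1 to 4 or androgenetic replicates 1, 2 and 5, and 440 to 903 without ICSI replicate 5, androgenetic replicate 4 or parthenogenetic replicate 6. SNURF passed against the parthenogenetic group with every library left out in turn.

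Of 30 genes drawn up as maternally expressed, MEG8 alone was tested. This long non-coding RNA is transcribed from the maternal copy. It had 2.28 ± 1.93 CPM in parthenogenetic and 0.129 ± 0.122 CPM in ICSI libraries (SD, n = 5), a log2 fold change of 4.09 ± 1.86 (SE) that did not pass. In androgenetic libraries, which have no oocyte-derived chromosomes by their label, it had 0 counts in 4 and 78 counts (2.93 CPM) in replicate 4, above every ICSI library. MEG3, a neighbouring maternally expressed RNA whose row did not pass the filter, had 19 counts in androgenetic replicate 2 and 1 in replicate 4, 0 in the other androgenetic and all ICSI libraries, and 0 to 161 counts in parthenogenetic ones. These counts in androgenetic replicates 2 and 4 go against what the label and the list would give. For ENSBTAG00000032079, ENSBTAG00000047865 and ENSBTAG00000005045, androgenetic minus ICSI was -2.50, 1.94 and 3.497 without androgenetic replicate 2 and -2.81, 1.51 and 3.56 without replicate 4. MEG8 was called by edgeR in 0 of the 3 comparisons.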

How the data were processed

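The deposited table holds raw, unnormalized counts per row and library. Trim Galore, cutadapt, STAR and featureCounts are named in the submitters' processing notes. Versions, genome build, annotation and strand setting are not given in the sources used here, so overlapping, antisense and near-identical genes cannot be told apart. The labels' protocols name a SMART-Seq HT kit and a Nextera XT kit. Groups came from the labels and replicate numbers from the titles. Counts were analysed with edgeR 4.0.16 in R 4.3.3: default filter by group (16375 rows, 99.9% of counts), TMM factors, a quasi-likelihood fit of all 15 libraries and Benjamini-Hochberg adjustment. The SE is the log2 fold change divided by the square root of F. The test was also run on simulated counts whose spread between libraries was smaller than in these data, so that run does not show how it performs here. The p-values of the test cover the spread between libraries alone, which may be technical. None of the 3 rows had a row of near-identical counts (within 2% or 3 counts in every library).

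The 3 rows, the gene lists and the tests were chosen with earlier results of these data known. Other rows named were the 3 most alike to each by correlation of log2 CPM (prior count of 2), those with the same pattern, those nearest to its limits, and tested imprinted genes. None of the 27607 Ensembl identifiers could be matched to the RefSeq table used for names, so neighbouring genes and sequences were not analysed here. Alternatives were other scaling factors, filters, tests (DESeq2 1.42.0, limma 3.58.1 voom) and designs, and each library left out.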

Additional observations from a re-analysis of the deposited data

Results flagged for a closer look

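ENSBTAG00000005045 had 8.65 CPM in ICSI replicate 5, far above the other 4 ICSI libraries by Dixon's criterion. The same library had the fewest rows detected of the ICSI group (15286), and parthenogenetic replicate 6 the fewest of its group (16154), each also far from the other 4. Of 20 groups of values examined 3 stood out in this way, where chance gives about 1 in 20. Relative to SNURF, ICSI replicate 5 did not stand out in ENSBTAG00000005045.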

How the results depend on the processing

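The log2 fold changes of the 3 rows kept their direction under every alternative run. They moved by less than the SD of log2 CPM between replicates, which is a wide yardstick. For ENSBTAG00000047865 this covers androgenetic minus ICSI alone, and its bounds over the parthenogenetic group were rerun under fewer alternatives. Leaving out each library in turn, androgenetic minus ICSI was at its lowest 1.47 for ENSBTAG00000047865 and ran from 3.15 to 3.90 for ENSBTAG00000005045, and the lower bounds of the fold of ENSBTAG00000047865 over parthenogenetic libraries from 64.0 to 89.8 for ICSI and from 211 to 329 for androgenetic ones. The number of rows under 1 CPM in every parthenogenetic library and at or above it elsewhere was 3, and 2 by library totals. It was 1 with a cut of 0.5 CPM, 9 with the mean of the parthenogenetic libraries, and 3 to 5 with a library left out. With a cut of 2 CPM it was 3, but these were ENSBTAG00000005045, SNURF and ENSBTAG00000008251.

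The background counts of calls (461 for androgenetic and 12 for parthenogenetic against ICSI, 287 between the haploid groups) were less stable. They ran from 0 to 1077, 3 to 14 and 14 to 903 with a library left out, and were 1987, 39 and 1678 with DESeq2. With limma voom they were 876 for androgenetic minus ICSI and 703 between the haploid groups, and with rows detected as a covariate 0 and 154. A fit of the haploid groups alone called 27. Without the library of fewest rows in each group, an alternative added after seeing the data, as were the overlaps under other scaling, they were 1630, 6 and 1874. The causes were not tested. With a replicate block they were 0, 3 and 88, and the replicate numbers did not pair the libraries: same-numbered libraries deviated with a correlation over 0.1 in 0 of 12 pairs (at most 0.0925). With the block androgenetic minus ICSI was -2.27, 1.83 and 3.51 for ENSBTAG00000032079, ENSBTAG00000047865 and ENSBTAG00000005045. SNURF passed for the parthenogenetic group against each of the other groups under every alternative. USP29 turned to -0.30 for androgenetic minus ICSI with limma voom, and ZIM3 to 0.043 for parthenogenetic minus ICSI without the libraries of fewest rows. ZIM3 passed between the haploid groups with DESeq2 alone (1.94, adjusted p = 0.0198). At the depth of these libraries, the counting intervals of the highest ICSI and lowest androgenetic library of ENSBTAG00000047865 overlap.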
